A study of Mus musculus with 36 samples.

Results

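The forkhead genes are the 44 protein-coding mouse genes whose symbols run from Foxa1 to Foxs1, of 21887 protein-coding genes in the annotation used. They were chosen by symbol alone, from Fox followed by a letter a to s and a number. The open chromatin around them was measured by ATAC-seq, which cuts accessible DNA with a transposase and reads where the cuts fall. The cells were chondrocytes of the autopod, the hand or foot skeleton, from FVB/NJ mouse embryos at E15.5, in late gestation. The 12 groups combine 2 limbs (forelimb, hindlimb) with 2 elements and 3 digits (I, III, V). The elements are the metapodials, which are metacarpals in the hand and metatarsals in the foot, and the phalanges. No group carried an allele or a treatment. Phalanges of digit I were the proximal and distal bones, and those of digits III and V also held the intermediate bone, so phalanges of digit I and of the other digits differ in the bones they contain. Each of the 36 libraries, 3 per group, pooled the left and right limbs of 3 to 5 embryos of a single litter, which gave 6 to 10 limbs. The authors deposited 1 peak list per group, called on its 3 libraries together, so the list is the unit here and no value has an error of its own. Every SD below is the spread between lists of a class.

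Forkhead proteins bind DNA through a winged-helix domain that recognises a core close to TGTTTAC. The FOXA proteins are pioneer factors that can bind closed chromatin, FOXO proteins leave the nucleus when insulin or IGF signalling activates AKT, and FOXP1, FOXP2 and FOXP4 act as dimers and mostly repress. In growth-plate cartilage FOXA2 and FOXA3 promote chondrocyte hypertrophy, FOXC1 and FOXC2 act in skeletal mesenchyme, and FOXO proteins restrain growth-plate chondrocyte proliferation.

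A forkhead locus is the gene body with 50 kb on each side. Peaks of all lists that shared 1 bp were merged into regions, and a locus was called open in a list when that list had a peak in at least 1 of its regions. The start of a gene was called covered when a peak lay over its annotated start, which RefSeq gave for 28 of the 44 genes as 33 windows. For the other 16 genes either gene end was accepted. Each window runs from 250 bases before to 50 bases after the start.

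The sequences below mark the range of start windows found and are from RefSeq, build GRCm38.p6, read 5′ to 3′ on the gene's strand. The Foxo3 start (chr10:42276646-42276945, minus strand) was under some of the strongest peaks of every list. The outermost of 3 Foxa2 starts (chr2:148046920-148047219, minus strand) was also covered in 12 lists. The Foxi1 start (chr11:34208040-34208339, minus strand) was covered in none, and the Foxi2 start (chr7:135410117-135410416, plus strand) only in the list of hand phalanges of digit III. Capitals mark CG dinucleotides in these 4. In the Foxa1 start (chr12:57546062-57546361, minus strand) the capitals mark the only exact forkhead motif found in a forkhead window.
Foxo3 start: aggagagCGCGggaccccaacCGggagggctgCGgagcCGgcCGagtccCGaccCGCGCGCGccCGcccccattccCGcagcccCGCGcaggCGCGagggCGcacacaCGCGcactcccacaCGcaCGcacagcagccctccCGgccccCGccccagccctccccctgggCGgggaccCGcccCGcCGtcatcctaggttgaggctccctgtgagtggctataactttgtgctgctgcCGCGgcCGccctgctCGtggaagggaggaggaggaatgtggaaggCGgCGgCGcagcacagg
Foxa2 start: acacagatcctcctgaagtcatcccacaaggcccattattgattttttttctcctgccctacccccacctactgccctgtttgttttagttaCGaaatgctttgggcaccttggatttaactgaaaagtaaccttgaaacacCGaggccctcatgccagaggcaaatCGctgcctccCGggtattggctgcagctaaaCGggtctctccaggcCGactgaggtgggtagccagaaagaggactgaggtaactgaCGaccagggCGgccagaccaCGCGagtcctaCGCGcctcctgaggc
Foxi1 start: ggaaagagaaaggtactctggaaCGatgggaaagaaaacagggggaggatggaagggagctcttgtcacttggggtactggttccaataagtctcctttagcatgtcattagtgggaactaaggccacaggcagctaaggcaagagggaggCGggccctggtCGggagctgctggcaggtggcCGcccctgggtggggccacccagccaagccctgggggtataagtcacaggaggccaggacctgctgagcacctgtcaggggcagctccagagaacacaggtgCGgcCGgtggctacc
Foxi2 start: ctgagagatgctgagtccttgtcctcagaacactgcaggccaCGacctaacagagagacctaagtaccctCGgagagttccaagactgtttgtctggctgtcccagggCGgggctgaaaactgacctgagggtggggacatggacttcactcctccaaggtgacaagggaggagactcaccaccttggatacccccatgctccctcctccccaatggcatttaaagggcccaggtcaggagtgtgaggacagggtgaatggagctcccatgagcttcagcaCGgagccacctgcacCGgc
Foxa1 start: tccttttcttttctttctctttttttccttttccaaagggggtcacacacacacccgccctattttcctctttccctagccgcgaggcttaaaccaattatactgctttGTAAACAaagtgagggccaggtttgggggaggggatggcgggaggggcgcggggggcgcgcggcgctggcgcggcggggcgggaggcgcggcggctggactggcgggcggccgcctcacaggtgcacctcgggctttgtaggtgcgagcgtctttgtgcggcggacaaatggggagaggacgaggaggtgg

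The Foxo3 window held 35 CG dinucleotides and the Foxa2 window 12, against 6 in Foxi1 and 5 in Foxi2. Across the 33 forkhead windows, the 24 covered in all 12 lists had a median of 26 CG dinucleotides (range 10 to 59) and a median G+C content of 66.5%. The 8 covered in no list had a median of 6 (range 3 to 16) and 55.7%. The ranges overlap between 10 and 16, so the number of CG dinucleotides did not separate every covered start from every uncovered one. The median over all 21263 protein-coding start windows was 13, and 22 over the forkhead windows. These are descriptions of the reference sequence with no test, and the windows of a gene with several starts are not independent.

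**Figure D1:**
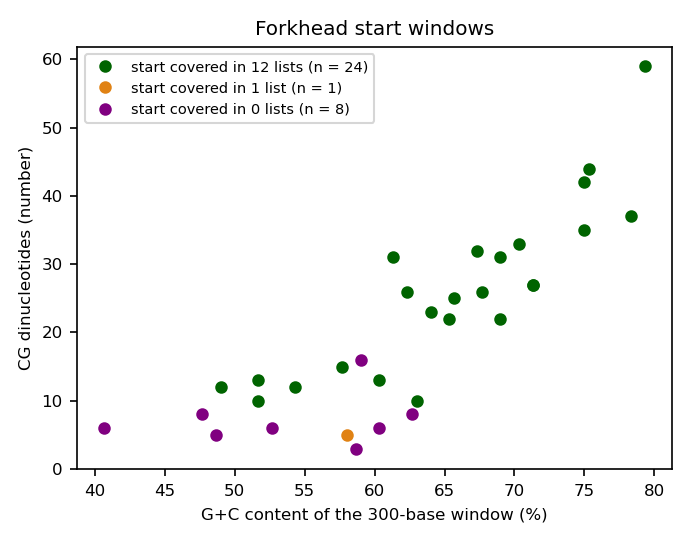
G+C content in percent (x axis) against the number of CG dinucleotides (y axis) in the 33 forkhead start windows of 300 bases, 1 point per window, coloured by the number of lists in which a peak covered the start. Windows covered in 12 lists had 10 to 59 CG dinucleotides and windows covered in none had 3 to 16.

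Exact matches to the letters TGTTTAC on either strand were found in 1 of 33 forkhead windows, that of Foxa1, or 3.03%, against 3.01% of all start windows. The shorter core TGTTTA, searched in the same way, which the longer motif contains, was in 5 forkhead windows, those of Foxa1, Foxp1 and Foxp3, or 15.2% against 11.5%. The SOX motif AACAATG was in 0 forkhead windows against 3.25% of all, and TATAAA was in 3, of Foxa2, Foxa3 and Foxp3, or 9.09% against 12.6%.

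Of the 44 forkhead loci, 41 (93.2%) were open in all 12 lists, against 81.6% of all protein-coding loci. No forkhead locus was closed in every list, against 11.8% of all. The 3 exceptions were Foxb1, a regulator of the developing hypothalamus, open in 8 lists, Foxi1, needed in the inner ear and in kidney intercalated cells, open in 10, and Foxi2, open in 1. Foxi2 had its only region, which also covered its start, in hand phalanges of digit III. That peak ranked low, with 88.4% of the peaks of its list above it by the authors' −log10 p-value, and its fold enrichment was 6.07.

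An open locus and an open start were different measures. The start was covered in all 12 lists for 34 of 44 forkhead genes (77.3%), against 60.5% of all genes, and in no list for 7 (15.9%), against 32% of all. The 7 were Foxi1, Foxn1, Foxn3, Foxp3, Foxr1, Foxr2 and Foxs1. Among them are Foxn1, the regulator of thymic epithelium, and Foxp3, the regulator of regulatory T cells. The Foxi2 start was covered in 1 list. For Foxb1 and Foxl1, which had no annotated start, a gene end was covered in 8 and 9 lists. Foxn3, a transcriptional repressor, lacked a peak on its annotated start although 19 of its 25 regions lay over the gene and 5 of those were in all 12 lists.

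Part of the regions counted lay over neighbouring genes. The 44 windows held 291 distinct regions, of which 120 (41.2%) overlapped a forkhead gene, 74 (25.4%) overlapped another protein-coding gene and no forkhead gene, and 97 (33.3%) overlapped no protein-coding gene. The regions over other genes were called in all 12 lists in 68.9% of cases, those over forkhead genes in 45.8% and those over no gene in 28.9%. A region over the gene itself was present in all 12 lists for 36 forkhead genes. For 5 genes, Foxi1, Foxp3, Foxr1, Foxr2 and Foxs1, no region touched the gene. The single region of the Foxr2 locus lay 6.13 kb away over Rragb, and 5 of the 6 regions of the Foxs1 locus lay over other protein-coding genes. Foxh1, a partner of SMAD proteins in Nodal signalling, had 8 regions that were called in every list, and 7 of them lay only over other genes. Region counts were identical in every list for Foxh1 (8), Foxi3 (3), Foxk2 (4), Foxr1 (5) and Foxr2 (1).

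Compared with all protein-coding loci, forkhead loci held a median of 6 regions against 5, or 5.43 per 100 kb against 3.80. Of the forkhead regions 134 (46.0%) were in all 12 lists and 36 (12.4%) in 1 list, against 39.8% and 15.54% of the regions in all protein-coding windows. The 19 Sox genes, another developmental family and the one that holds the chondrocyte regulators, had 37.0% of their regions in all 12 lists, and the 13 T-box genes had 42.4%. The start was covered in all lists for 16 Sox genes and 7 T-box genes. These shares have no test between families.

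**Figure D2:**
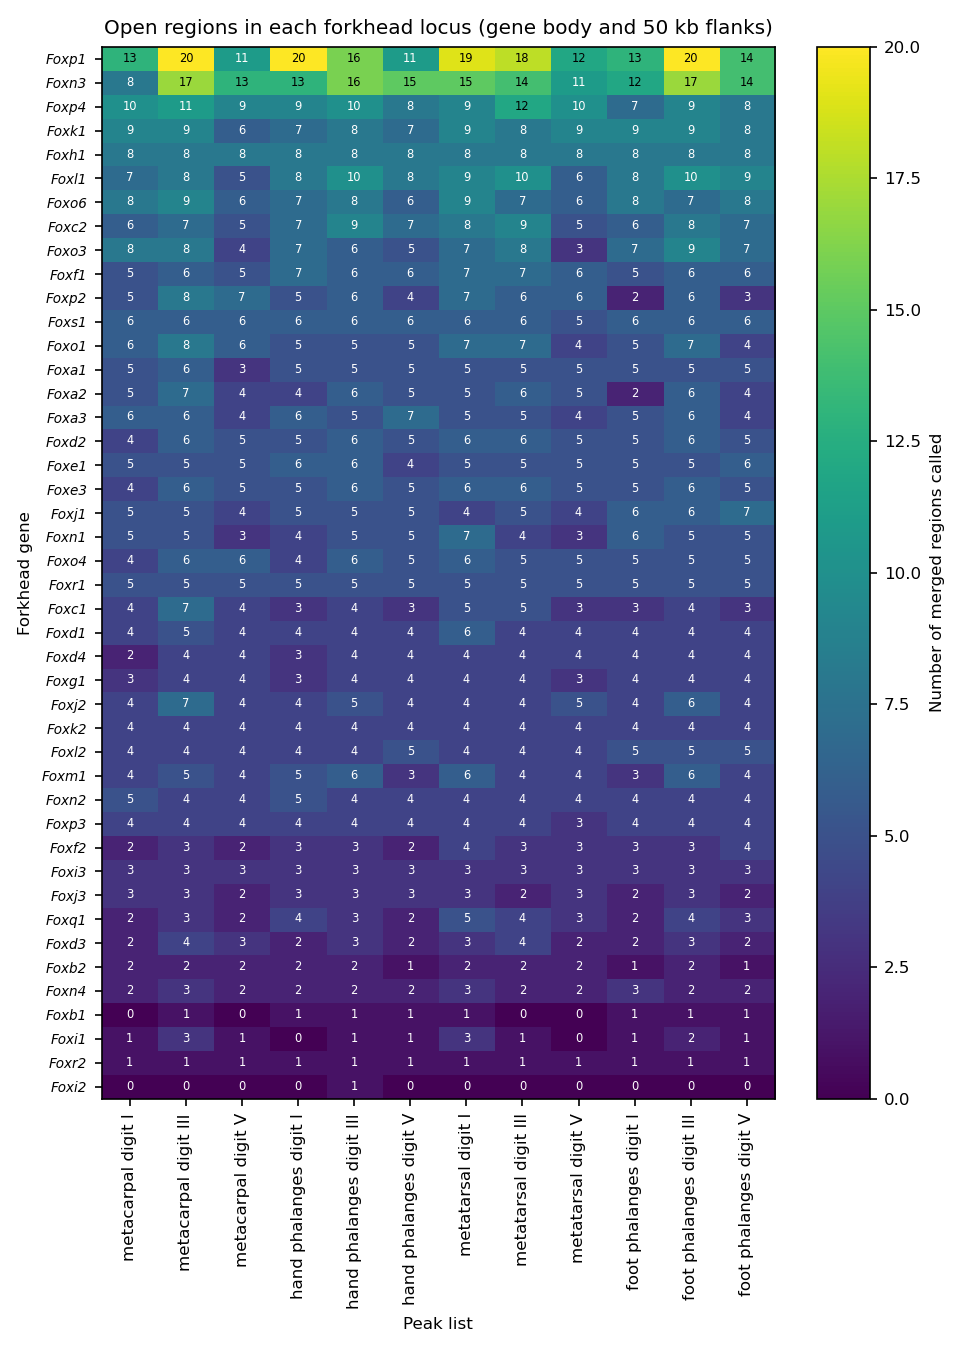
Number of merged regions called in each forkhead locus (rows, gene body with 50 kb flanks) in each of the 12 peak lists (columns), given by colour and number. Foxp1 and Foxn3 had the highest counts, and Foxi2 had a region in the list of hand phalanges of digit III alone.

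The highest median counts were at Foxp1, Foxn3 and Foxp4, genes of 597405, 373587 and 57500 bp. Foxp1 had a median of 15 regions, Foxn3 had 14 and Foxp4 had 9. Length alone did not order the counts, since Foxp2, at 540629 bp, had a median of 6. At Foxp1 the metacarpal lists of digits I, III and V held 13, 20 and 11 regions, the hand phalanx lists 20, 16 and 11, the metatarsal lists 19, 18 and 12, and the foot phalanx lists 13, 20 and 14. Of its 28 regions 27 lay over the gene and 8 were in all lists. At Foxn3 the same order of lists gave 8, 17 and 13, then 13, 16 and 15, then 15, 14 and 11, then 12, 17 and 14. Per 100 kb the Foxp1 locus held 4.01 regions and the Foxn3 locus 5.28, below the forkhead median of 5.43. The Foxp4 locus held 8.25, above that median.

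Among the FOXO genes, annotated starts were covered in all 12 lists for Foxo1 and Foxo3. For Foxo4 and Foxo6, which had no annotated start, a gene end was covered in each of the 12 lists. The Foxo3 start lay under peaks with only 1.31% to 4.27% of their list ranked above them, the strongest rank of any annotated forkhead start. Foxc1 starts ranked at 5.17% to 13.5% and Foxj3 starts at 4.21% to 11.4%. The start of Foxn4, a gene of retinal and spinal cord progenitors, was covered in all lists by weaker peaks, with 41.6% to 94.2% ranked above. Ranks describe peaks within a list and show no change between lists.

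Some windows overlap, so their counts are not independent. Foxd2 and Foxe3 share all 6 of their regions. Foxf1, Foxc2 and Foxl1 lie in a cluster in which Foxc2 shares all 10 of its regions with Foxl1 and 7 with Foxf1. Foxf2 and Foxq1 share 2.

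The lists themselves differed in length. They held 36194 to 53276 peaks, and the digit III lists held 47308 ± 4236 (SD, n = 4 lists) against 39065 ± 3316 in the other 8 (exact permutation p = 0.0247, two-sided). Forkhead loci followed the same direction, with 222 ± 11.5 regions in digit III lists against 192 ± 15.4, and per 10000 regions called the order turned, 49.96 ± 1.85 against 52.3 ± 1.88. The lowest −log10 p-value kept also differed, 42.7 ± 8.56 in digit I lists against 31.8 ± 4.89 in the others (exact permutation p = 0.037). Digit V lists reached lower, to 27.9 ± 3.82, where the other digits ended at 39.2 ± 6.74 (exact permutation p = 0.0247), while the digit III value, 35.7 ± 0.71 against 35.3 ± 9.99, did not pass (exact permutation p = 0.951). The lists thus ended at different thresholds, and a region called in fewer lists need not be closed in the rest. Counts were also compared after each list was shortened to its 36194 most significant peaks, called lists of equal length below. The labels' chondrocytes carried open starts of 10 of 12 chondrocyte genes in all lists, against 60.5% of all genes, including Sox9, Col2a1 and Acan. The start of Sox5 was covered in 0 lists and that of Matn1 in 7. There were 34 marker genes of 6 other cell types (nerve, epidermis, blood, endothelium, skeletal muscle and tendon). Of these, 10 had starts covered in all 12 lists, against the same 60.5%. Among the 10 were Kdr and Tek of endothelium, Spi1 of blood cells and Scx and Mkx of tendon. The starts of 14 of the 34 were covered in none, against 32% of all genes, among them Krt5, Krt14, Ptprc and Pecam1.

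For each factor the mean region count of a locus was compared over lists by an exact two-sided permutation test, with labels swapped within the strata of the other 2 factors. The smallest p is 0.0312 for limb or element and 0.0123 for a digit. Over the 19301 protein-coding loci with a region, no locus of any gene passed the threshold of 0.05 after Benjamini-Hochberg adjustment, the smallest adjusted permutation p being 0.395 for digit III. Passing would have needed a large share of all loci at the smallest p, so the adjusted values cannot decide whether single loci differ. Calls below are therefore at an unadjusted exact p of 0.05 or less, and counts of forkhead loci called are given beside the percentage of all loci called in the same way.

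By limb, no forkhead locus was called, against 0.513% of loci called higher and 0.0933% called lower in hindlimb. The smallest exact permutation p among forkhead loci was 0.125, at Foxl1, a gene of gut mesenchyme, with 8.67 ± 1.51 regions in hindlimb lists and 7.67 ± 1.63 in forelimb lists (SD, n = 6 each). A region 0.391 kb beyond the Foxf1 gene (chr8:121088545-121094716) was called in 0 of 3 metacarpal lists, 3 of 3 metatarsal lists, 3 of 3 hand phalanx lists and 2 of 3 foot phalanx lists. It was chosen after its calls were seen, and its pattern combines limb and element.

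By element, 1 forkhead locus, Foxp4, was called lower in phalanges, against 0.948% of all loci called lower, and 0 were called higher, against 0.829%. FOXP4 is a repressor that pairs with FOXP1 and FOXP2. Metacarpal lists of digits I, III and V held 10, 11 and 9 regions, hand phalanx lists 9, 10 and 8, metatarsal lists 9, 12 and 10, and foot phalanx lists 7, 9 and 8. Phalanges were below the metapodial of the same limb and digit in 3 of 3 pairs in each limb, although the ranges of the classes overlap. The means were 8.5 ± 1.05 and 10.2 ± 1.17 (SD, n = 6 each), a difference of -1.67 with an exact permutation p of 0.0312, the smallest possible, and an adjusted permutation p of 0.861. The count and the covered length went in opposite directions: peaks covered 7.89 kb more of the Foxp4 window in phalanges (exact permutation p = 0.25). At equal length the difference was -1.5 (exact permutation p = 0.0625), and 1.25% of all loci were called lower there. The call was lost without metacarpals of digit III, hand phalanges of digit V or foot phalanges of digit I (exact permutation p = 0.0625 each), and without hand phalanges of digit I (exact permutation p = 0.125).

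Regions on both sides of Foxp4 were called in fewer phalanx lists. They were chosen after their calls were seen and are part of the count tested above, so they add no support to it. A region 23.7 kb from the gene (chr17:47841397-47843408) was in 6 of 6 metapodial and 2 of 6 phalanx lists, and another 31.9 kb from it on the other side (chr17:47956531-47959796) was in 6 and 3. The 3 regions over Foxp4 that were shared by all lists included 1 of 25206 bp.

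Other cartilage-associated loci did not pass by element. Foxp2, a further member of the FOXP subfamily, held 5, 8 and 7 regions in metacarpal lists, 5, 6 and 4 in hand phalanx lists, 7, 6 and 6 in metatarsal lists, and 2, 6 and 3 in foot phalanx lists. Its means were 4.33 ± 1.63 in phalanges and 6.5 ± 1.05 in metapodials (exact permutation p = 0.125), and its covered length was 4.14 kb lower in phalanges (exact permutation p = 0.0312), as in 3.87% of all loci. Foxc1 held 3.33 ± 0.52 against 4.67 ± 1.37 (exact permutation p = 0.0625), and Foxo1 5.17 ± 0.98 against 6.33 ± 1.37 (exact permutation p = 0.125). Without metatarsals of digit V the Foxc1 exact permutation p was 0.0312, and 1.55% of all loci were called lower. There the foot phalanges of digit V had no partner and kept their label, so the labellings were not balanced. Foxa2 held 4.5 ± 1.52 against 5.33 ± 1.03 (exact permutation p = 0.312). Foxa3 (5.5 ± 1.05 against 5 ± 0.89), Foxc2 (7.33 ± 1.03 against 6.67 ± 1.63) and Foxo3 (6.83 ± 1.33 against 6.33 ± 2.25) differed by less than the spread between lists, and so did Foxp1, with a difference of 0.17 regions.

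A region that separated phalanges from metapodials lay beside Foxf1. FOXF1 is a regulator of mesenchyme, and Fendrr is a long noncoding RNA gene next to it that is known from lateral mesoderm. The region (chr8:121072147-121077791) lies inside Fendrr, 6.60 kb from Foxf1, 38.4 kb from Foxc2 and 49.9 kb from Foxl1. It was called in 6 of 6 phalanx lists and 0 of 6 metapodial lists, a pattern found in 0.119% of all regions and in 1 of the 291 forkhead regions. Peaks in all 6 lists shared a stretch of 1431 bp (chr8:121072605-121074035). Their folds were 8.19, 6.84 and 5.14 in hand phalanges of digits I, III and V, and 7.14, 6.19 and 7.90 in foot phalanges, and 58.3% to 97.9% of the peaks of each list ranked above them. At equal length the region was called in 4 of 6 phalanx lists and 0 of 6 metapodial lists.

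The opposite pattern occurred beyond the far end of Fendrr. A region 31.2 kb from Foxf1 (chr8:121050970-121053205) was called in 6 of 6 metapodial lists and 1 of 6 phalanx lists, hand phalanges of digit I, and the same held in lists of equal length. All or all but 1 list of the metapodial class and at most 1 other list were reached by 1.16% of all regions. The region over Foxf1 itself and those over Foxc2 and Foxl1 were in all 12 lists. At Foxf1 the metacarpal lists of digits I, III and V held 5, 6 and 5 regions, the hand phalanx lists 7, 6 and 6, the metatarsal lists 7, 7 and 6, and the foot phalanx lists 5, 6 and 6. The mean counts were equal in the classes, 6 ± 0.63 in phalanges and 6 ± 0.89 in metapodials, while the regions called differed.

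**Figure D3:**
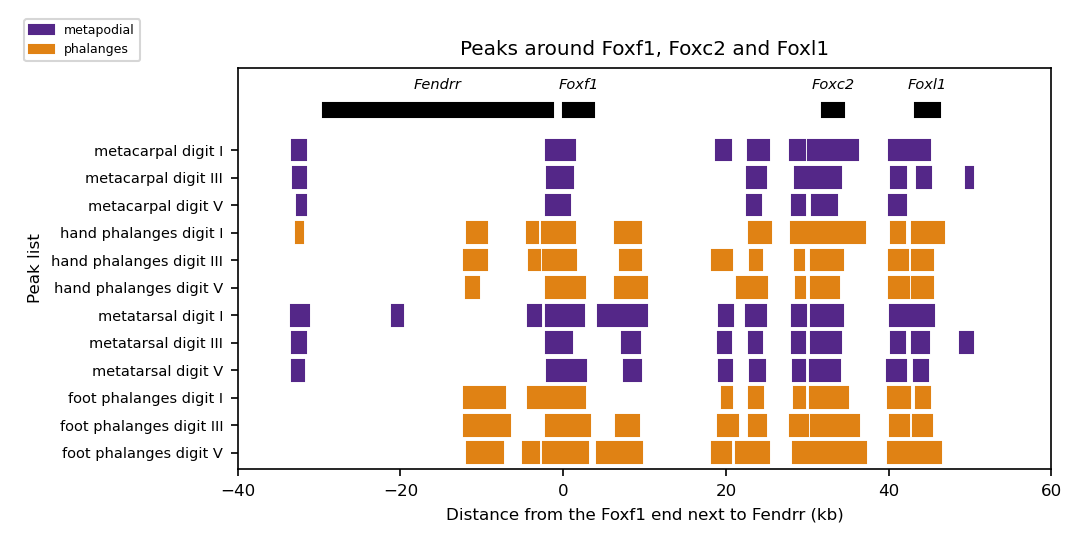
Peaks of each list (rows) around Foxf1, Foxc2 and Foxl1, with distance in kb from the Foxf1 end next to Fendrr on the x axis, metapodial lists in purple, phalanx lists in orange and genes in black. Only the 6 phalanx lists have a peak about 10 kb to the left of Foxf1, and the peak about 30 kb to the left is in all metapodial lists and in 1 phalanx list.

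Single regions at other loci followed element less strictly. A region over Foxo1 (chr3:52295539-52301631, 6093 bp) was called in 5 of 6 metapodial lists and 0 of 6 phalanx lists, and in 4 and 0 in lists of equal length. A region over Foxn1 (chr11:78361883-78365060) was called in 6 phalanx lists and 1 metapodial list, and in 5 and 0 at equal length. All or all but 1 phalanx list and at most 1 metapodial list were reached by 1.05% of all regions. At Foxb1 the single region was in all 6 phalanx lists and in those of metacarpals of digit III and metatarsals of digit I. Within it a stretch of 492 bp (chr9:69758638-69759129) was covered in 6 of 6 phalanx lists and 0 of 6 metapodial lists, at equal length too, against 0.233% of regions with such a stretch. Peaks covered 2.76 to 3.05 kb of the Foxb1 window in phalanx lists, 2.13 kb in metacarpals of digit III, 2.24 kb in metatarsals of digit I and 0 in the other 4 metapodial lists.

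By digit I, no forkhead locus was called, against 0.969% of loci called higher and 0.591% called lower. The smallest exact permutation p was 0.111.

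By digit III, 8 of 44 forkhead loci (18.2%) were called higher, against 10.8% of all loci, and 0 were called lower, against 0.0259%. The count was 4 without metacarpals of digit III, where 2.94% of all loci were called, and 3 without hand phalanges (4.96%) or foot phalanges (4.24%) of digit III. It was 12 without metatarsals of digit I, where 12.4% of all loci were called. The 8 were Foxa2, Foxc1, Foxc2, Foxd2, Foxd3, Foxe3, Foxl1 and Foxp4. Their windows overlap in part, as given above for Foxd2 with Foxe3 and Foxc2 with Foxl1. The median difference was 0.375 regions over forkhead loci and 0.25 over all loci, so higher counts in the longer digit III lists were common to both. In lists of equal length, where the median difference over all loci was 0, the call was kept by Foxa2 alone, 1 of 44 against 1.53% of all loci, and Foxj1 and Foxr1 were called lower, against 1.55%.

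Foxa2 encodes the pioneer factor that promotes hypertrophy. Metacarpal lists of digits I, III and V held 5, 7 and 4 regions, hand phalanx lists 4, 6 and 5, metatarsal lists 5, 6 and 5, and foot phalanx lists 2, 6 and 4. Every digit III list held more regions than every list of another digit. The share of all loci with such a separation was not counted. The means were 6.25 ± 0.5 (SD, n = 4 lists) and 4.25 ± 1.04 (n = 8), a difference of 2 with an exact permutation p of 0.0123, the smallest possible, and an adjusted permutation p of 0.395. In lists of equal length the means were 6 ± 0 and 4 ± 1.2 (exact permutation p = 0.0123). Per 10000 regions called they were 1.40 ± 0.05 and 1.16 ± 0.30 (exact permutation p = 0.173). Without foot phalanges of digit V the difference was 1.96 (exact permutation p = 0.0556).

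The Foxa2 gene and its starts were open everywhere, and the lists differed in the flanks. The region over the gene (chr2:148043054-148050197) and the one at chr2:148066893-148071010 were in 12 lists. With flanks of 10 kb the difference by digit III was 0.25 (exact permutation p = 0.556). The region most tied to digit III lay 11.4 kb from the gene within the noncoding gene 9030622O22Rik (chr2:148029033-148031428). It was called in 4 of 4 digit III lists and in 1 of 8 others, hand phalanges of digit V, and the same held in lists of equal length. This looser pattern for digit III was met by 2.28% of all regions in the lists as deposited, and the share at equal length was not counted. The region was chosen after its calls were seen and is part of the Foxa2 count tested above, so it adds no support to that difference. Regions at chr2:148077561-148080409 and chr2:148081716-148083127 were in 9 and 10 lists, and the region at chr2:148036703-148042447 was absent only from metacarpals of digit V and foot phalanges of digit I. A further region at chr2:148091690-148092319 was called in metacarpals of digit III alone.

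**Figure D4:**
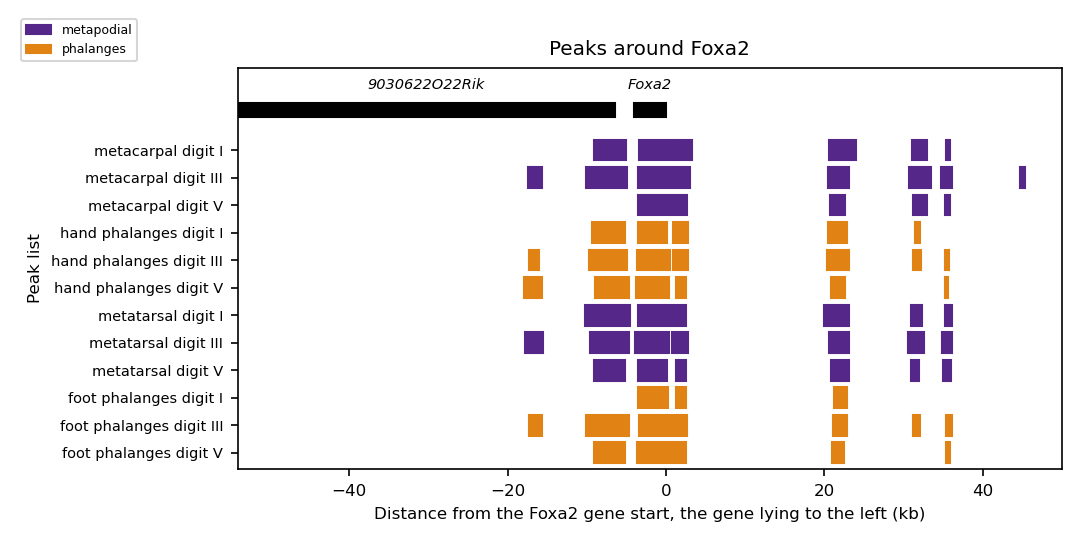
Peaks of each list (rows) around Foxa2, with distance in kb from the gene start on the x axis (the gene lies to the left of 0), metapodial lists in purple, phalanx lists in orange and genes in black. The peak about 16 kb to the left is in the 4 digit III lists and in hand phalanges of digit V.

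Foxc1 and Foxc2, the skeletal mesenchyme regulators, were next. Foxc1 held 4, 7 and 4 regions in metacarpal lists of digits I, III and V, 3, 4 and 3 in hand phalanx lists, 5, 5 and 3 in metatarsal lists, and 3, 4 and 3 in foot phalanx lists. The digit III mean was 5 ± 1.41 against 3.5 ± 0.76 (exact permutation p = 0.0247), and digit III was above both other digits in 3 of 4 combinations of limb and element. The Foxc1 difference at equal length was 0.125 (exact permutation p = 1). Its gene lay under a region of 28204 bp that was in all lists.

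Foxc2 held 6, 7 and 5 regions, then 7, 9 and 7, then 8, 9 and 5, then 6, 8 and 7 in the same order. Foxl1 held 7, 8 and 5, then 8, 10 and 8, then 9, 10 and 6, then 8, 10 and 9. Both were higher in digit III, Foxc2 with 8.25 ± 0.96 against 6.38 ± 1.06 and Foxl1 with 9.5 ± 1 against 7.5 ± 1.41 (exact permutation p = 0.037 each). Both differences turned at equal length to -0.625 (exact permutation p = 0.346 and 0.481).

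Foxd3, a neural crest regulator, held 2, 4 and 3 regions, then 2, 3 and 2, then 3, 4 and 2, then 2, 3 and 2. The means were 3.5 ± 0.58 and 2.25 ± 0.46 (exact permutation p = 0.0123), and digit III was highest in 4 of 4 combinations. The Foxd3 difference at equal length was 0.25 (exact permutation p = 0.667). A region 28.4 kb away (chr4:99625987-99627849) was in 4 of 4 digit III lists and 1 of 8 others, but in 1 of 4 and 1 of 8 at equal length. It was chosen after its calls were seen and is part of the Foxd3 count, so it adds no support to that difference.

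Foxd2 and Foxe3, the latter a lens gene, held 4, 6 and 5 regions, then 5, 6 and 5, then 6, 6 and 5, then 5, 6 and 5, since their regions are the same. The means were 6 ± 0 against 5 ± 0.53 (exact permutation p = 0.0247), with a difference of 0.125 at equal length (exact permutation p = 1). Foxp4 was higher in digit III with 10.5 ± 1.29 against 8.75 ± 1.04 (exact permutation p = 0.0123), and its difference was -0.25 at equal length (exact permutation p = 0.728).

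**Figure D5:**
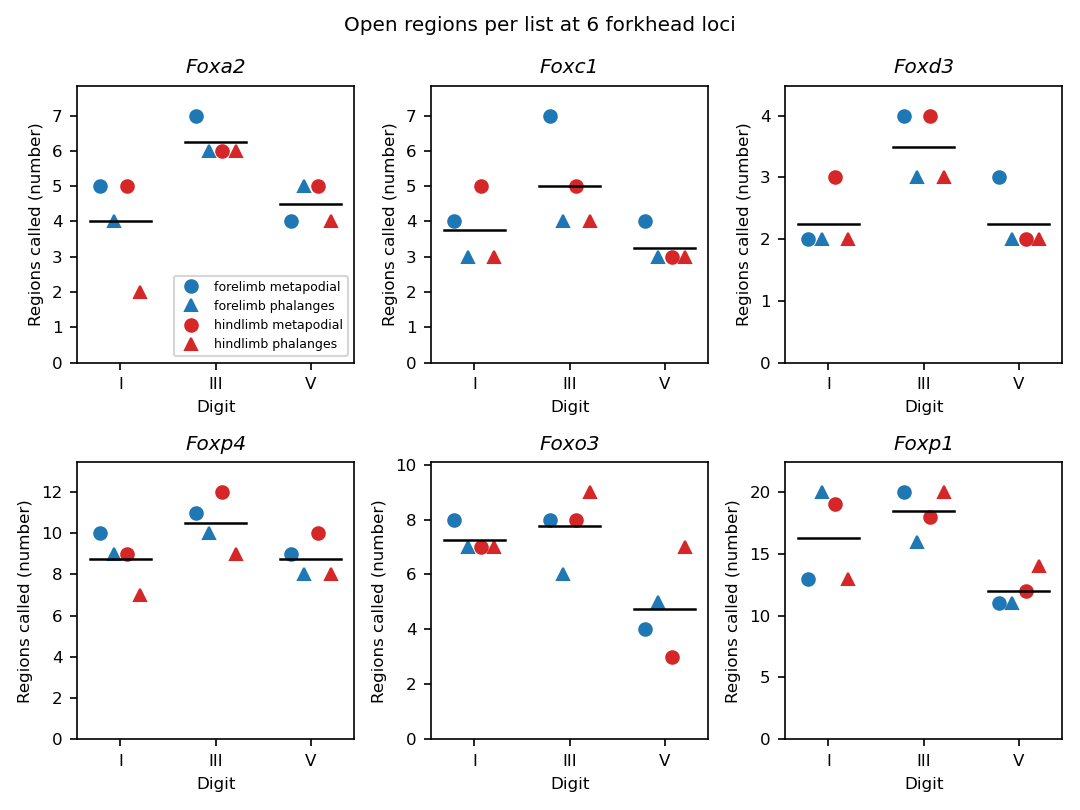
Regions called per list (y axis, number) by digit (x axis) at 6 forkhead loci, 1 point per list, with circles for metapodials, triangles for phalanges, blue for forelimb, red for hindlimb and black bars for the mean of a digit. The 4 digit III lists lie above all others at Foxa2, and the digit V means are lowest at Foxo3 and Foxp1.

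A region over Foxp1 (chr6:99336562-99339777, 3216 bp) separated digit III, with a call in 4 of 4 digit III lists and 0 of 8 others, a pattern found in 0.117% of all regions. Its peaks were weak, with folds of 5.82 in metacarpals, 6.07 in hand phalanges, 5.98 in metatarsals and 5.63 in foot phalanges, and 83.0% to 91.3% of the peaks of each list ranked above them. At equal length it was called in 0 of 4 digit III lists. No region in a forkhead window separated the other classes in this way. Among all regions the share was 0.0763% for hindlimb, 0.0061% for forelimb, 0.0915% for metapodials, 0.0061% for digit I and 0.00153% for digit V.

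By digit V, 2 forkhead loci were called lower, against 3.34% of all loci, and 0 were called higher, against 0.0518%. They were Foxo3 and Foxp1. The count was 0 without metacarpals (1.46% of all loci) or metatarsals (0.912%) of digit V and 4 without foot phalanges of digit I (3.43%). It was 3 without foot phalanges of digit V (2.44%) and 1 without each of 6 other lists (1.06% to 2.5%). The median difference was -0.438 over forkhead loci and -0.25 over all loci.

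Foxo3, a FOXO factor of stress resistance and quiescence, held 8, 8 and 4 regions in metacarpal lists, 7, 6 and 5 in hand phalanx lists, 7, 8 and 3 in metatarsal lists, and 7, 9 and 7 in foot phalanx lists. Digit V was lowest in 3 of 4 combinations, the foot phalanges of digit V having as many as those of digit I. The means were 4.75 ± 1.71 (SD, n = 4 lists) and 7.5 ± 0.93 (n = 8), a difference of -2.75 with an exact permutation p of 0.0247 and an adjusted permutation p of 1. Without the digit V list of metacarpals, hand phalanges or metatarsals the exact permutation p was 0.0741. A region 28.2 kb from the gene (chr10:42152033-42153680) was in 8 of 8 lists of digits I and III and 1 of 4 of digit V, and in 5 and 1 at equal length. All or all but 1 list of the other digits and at most 1 list of digit V were reached by 0.918% of all regions. Inside the gene, chr10:42218801-42223048 was in 5 lists, none of them of digit V, and the share of all regions with that pattern was not counted. Both regions were chosen after their calls were seen and are part of the Foxo3 count, so they add no support to its difference.

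Foxp1, a regulator of chondrocyte and osteoblast maturation, held 12 ± 1.41 regions in digit V lists against 17.4 ± 3.02 in the others (exact permutation p = 0.0494). Its 4 digit V lists held 11, 11, 12 and 14 and the other 8 held 13 to 20, with an overlap through metacarpals and foot phalanges of digit I, at 13 each. In lists of equal length the differences of Foxo3 and Foxp1 were both -1.75 (exact permutation p = 0.0741 each), and Foxp3 was called lower, against 0.556% of loci.

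All 23 genes of a list that runs from the insulin and IGF1 receptors through PI3K and AKT to FOXO targets were open in all 12 lists, against 81.6% of all loci, and 21 had starts covered in all lists, against 60.5%. The exception with no covered start was Ywhaz, a 14-3-3 protein that holds FOXO proteins in the cytoplasm. By digit III, 3 of the 23 were called higher, Cdkn1b, Gadd45a and Ywhaz, against 10.8% of all loci, with a list median of 0.375 against 0.25 over all loci. Cat, the catalase gene, was called lower in digit V, against 3.34% of all loci, and Crebbp, a coactivator gene, lower in phalanges, against 0.948%, with no call by limb or digit I. Calls at equal length were not counted for the gene lists given here and below.

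Of 15 hypertrophy genes, 14 were open in all lists, against 81.6% of all loci. The exception was Mmp13, the collagenase of late hypertrophic cartilage. The starts of 10 were covered in all lists, against 60.5% of all genes. The start of Col10a1 was covered in 6 lists, Runx2 in 3, Ibsp and Spp1 in 1 each, and Mmp13 in 0. By digit III 5 of the 15 were called higher, Gli2, Gli3, Ibsp, Pthlh and Runx2, against 10.8% of all loci, with a median of 0.812. By digit V 2 were called lower, Alpl and Gli2, against 3.34%, with a median of -0.812. Of 12 chondrocyte genes, Acan, Col2a1, Col9a1 and Sox6 were called higher in digit III, with a median of 1.06, and Acan and Sox6 lower in digit V, beside the same 10.8% and 3.34% of all loci. Of 6 perichondrium and osteoblast genes, Sp7 was called higher in digit I, against 0.969% of all loci.

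Among the 34 markers of other cell types, 4 were called higher in digit III, Cdh5, Elavl4, Ptprc and Tnmd, against 10.8% of all loci, with a median of 0.375. In digit I 2 were called lower, Cdh5 and Emcn, both endothelial, against 0.591%, and 0 were called in either direction in digit V. Emcn had 1 region in its window. The other endothelial markers did not pass in digit I, with differences of 0.25 for Pecam1, -0.125 for Kdr and Tal1, and -0.625 for Tek. The summed counts of the 34 markers were 111 to 125 in digit III lists, 95 to 123 in digit I and 93 to 115 in digit V. By element, Cdh5 was called lower in phalanges, against 0.948%, with sums of 104 to 122 against 93 to 125. The part of other cell types and of list length in the forkhead differences by digit III was not tested beyond the lists of equal length.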

How the data were processed

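ATAC-seq libraries were made from E15.5 FVB/NJ autopod chondrocytes and sequenced with a target depth per library, per the labels' protocols. The tools named, without roles, are MACS3, Picard 2.9.0 and Bowtie2 2.3.4.1, and the build is mm10, per the submitters' processing notes; trimming, filtering and read shifting are not given in the sources used here. The authors deposited 12 peak lists, 1 per group, with a score, a fold enrichment (ratio) and a −log10 p-value for each peak. These are the peak caller's values and were used to rank peaks within a list. The depth of each library is unknown and no count per library was used.

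Regions, windows and tests were computed in Python 3.11.15 with numpy 2.4.6 and pandas 2.3.3, with gene positions from RefSeq for GRCm38.p6, which shares its coordinates with mm10. The test was checked on simulated data for the element comparison alone, with each region's call rate equal across lists apart from planted differences. Digit comparisons and unequal list lengths were not covered by that check. P-values measure the spread between lists. Values in every list are given for Foxa2, for loci with an exact p of 0.05 or less, for the 3 highest medians and for loci with a separating region, and the cartilage-associated members are named in any case. The forkhead family and the gene lists were chosen with earlier results of these data known; within the family, members follow from the symbol alone. Alternatives changed the flank, the cover, the list length, the peak width, the scaling, the assignment of regions and the lists left out; covered length, stretches and a rule relaxed by 1 list were added after seeing the data.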

Additional observations from a re-analysis of the deposited data

Results flagged for a closer look

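The Foxa2 locus held 7 regions in metacarpals of digit III, while the other 3 digit III lists held 6 each, which set that list apart from its class. It held 2 regions in foot phalanges of digit I, while the other 7 lists of digits I and V held 4 to 5. The Foxl1 locus held 8 regions in metacarpals of digit III, while the other digit III lists held 10 each. The rule for such gaps is set to flag about 1 of 20 classes by chance for continuous values. That rate need not hold for small whole-number counts with ties.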

How the results depend on the processing

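No paired analysis was possible because peaks were called on pooled libraries and no column carries a replicate number; tests by limb and element pair lists, not replicates. The number of loci open in all lists stayed at 41 when each list was left out. Loci open in no list were 2 with 10 kb flanks (Foxi1, Foxr1) and 1 in lists of equal length (Foxi2), and 0 to 1 with a list left out. Calls by limb were 0 under every setting run. Lower in phalanges, the count of 1 became 0 with 10 kb flanks, where 0.507% of all loci were called. It was 0 at equal length (1.25%), 0 with 500-bp summit windows (1.05%) and 4 per 10000 regions (Foxc1, Foxd3, Foxo1, Foxp2, against 4.18%). It was 0 to 2 with a list left out, with Foxc1 added without metatarsals of digit V (1.55%). Higher in phalanges, it was 1 per 10000 regions (Foxb1, against 5.63%) and 3 by covered length (Foxb1, Foxh1, Foxj1, against 5.03%). In digit I, higher calls were 2 at equal length (Foxo3, Foxo6, against 2.81%), 1 per 10000 regions (4.28%) and 1 by covered length (4.59%). Lower calls in digit I were 1 with summit windows (0.742% of all loci), 1 per 10000 regions (2.18%) and 1 by nearest gene end (0.514%).

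Higher in digit III, the count of 8 became 0 with 10 kb flanks, where 5.79% of all loci were called. At 50% cover it was 2 (Foxa2, Foxd3, against 9.08%). It was 1 at equal length (1.53%), 2 per 10000 regions (Foxc1, Foxd3, against 3.41%) and 4 by covered length (13%). It was 3 to 12 with a list left out, 4 without metacarpals of digit III and 3 without hand or foot phalanges of digit III. Lower in digit III, it was 2 at equal length (1.55%) and 11 per 10000 regions, where 26.9% of all loci were called lower. Higher in digit V, it was 1 per 10000 regions (4.32%). Lower in digit V, the count of 2 became 6 with 100 kb flanks (5.53%), 1 at equal length (0.556%) and 7 by covered length (6.37%). It was 0 to 4 with a list left out, 0 without metacarpals or metatarsals of digit V and 4 without foot phalanges of digit I. Separating regions, 2 as reported, were 5 with 100 kb flanks, 1 at 50% cover and 0 at equal length. They were 16 by the rule relaxed by 1 list and 2 to 4 with a list left out (4 without metatarsals of digit I). By class, the relaxed rule was met by 0% to 1.37% of forkhead regions and by 0.0137% to 2.28% of all regions. For the changed cover, list length and left-out lists no share over all regions was computed. Windows with the forkhead motif went from 1 to 5 with the 6-letter core.

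Signs turned for Foxc2 and Foxl1 (-0.625 each) and Foxp4 (-0.25) by digit III at equal length. They turned for Foxd2 and Foxe3 (-0.0052 each) and Foxp4 (-0.0259) per 10000 regions, and by covered length for Foxl1 by digit III (-0.364 kb) and Foxp4 by element (7.89 kb). The Foxa2 difference by digit III was 1.68 to 2.11 with a list left out. Foxd3 kept its digit III call with every list left out, Foxa2 lost it without foot phalanges of digit V, and each of the other 6 lost it without at least 1 list. By nearest gene end, the locus called lower in phalanges was Foxa2 (-2.67, exact permutation p = 0.0312, against 0.881% of all loci), not Foxp4 (-0.833, exact permutation p = 0.125). The Foxp4 difference by element was -1.97 to -1.3 with a list left out. The cause of these changes was not tested. With 12 lists and no counts per library, small differences were not detectable, and a peak below a list's threshold cannot be told apart from closed chromatin.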
